A study of Mus musculus with 20 samples.

Results

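The colon of mice fed a high fat diet with porphyran was compared with the colon of mice fed a control diet, on 2 of the 20 one-colour arrays of a study of 5 tissues. Male C57BL/6J mice were 5 weeks old at the start and were fed for 13 weeks. The HFD+PP mice ate a diet with 60% of its energy as fat and 2% by weight of porphyran, the sulfated galactan of the red alga nori. The CD mice ate a control diet with 10% of its energy as fat and no supplement. The other colon arrays held HFD mice, on the 60% fat diet alone, and HFD+Ex mice, on the same diet plus 2% by weight of nori extract. Each array held RNA pooled from 7 mice, so every group was 1 array, no test was possible, and no difference below has a replicate check. HFD+PP and CD differed in both fat content and porphyran, which cannot be told apart in their difference, so values of the other colon arrays are given beside it.

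The colon wall is an epithelium of absorptive colonocytes, mucus-secreting goblet cells and hormone cells that is renewed from dividing crypt cells. It overlies connective tissue with immune cells and layers of smooth muscle with enteric neurons. Colonocytes take up salt, water and short-chain fatty acids, and the epithelium secretes mucins and antimicrobial proteins that hold bacteria away from its surface. Porphyran is not cut by mammalian digestive enzymes and reaches the colon, where some gut bacteria can ferment it.

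Levels are log2 processed signals relative to the 75th percentile of each array, and differences are HFD+PP minus CD on the log2 scale. A gene was measured when its probe stood well above background on either array, and changed when it differed at least 2-fold. Where the dimmer array did not see the gene, the higher of its signal there and that array's detection floor was used. The floor is the lowest level of any probe well above background on that array, and a gene not seen there can read above it. Such a difference is thus an approximate bound and is written "at least". Levels of different genes come from different probes and are not compared with each other.

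The colon CD array stood apart from the other colon arrays in liver transcripts. Genes typical of liver, 542 in all, had a mean level on the 4 liver arrays at least 5 log2 above their median on the 4 colon arrays, and were kept apart from all counts and lists below. Of the 452 liver genes measured here, 151 were lower and 8 higher on the HFD+PP array than on CD, which is 33.4% and 1.77%, with a median difference of -0.57. Among the lower ones, 54 differed by at least 8-fold. Mup20, a major urinary protein made by the liver, had a level of -3.49 on the HFD+PP array, -2.16 on HFD, -3.42 on HFD+Ex and 3.88 on CD. Alb, serum albumin, read -2.36 on the HFD+PP array, -1.99 on HFD, -2.35 on HFD+Ex and 2.55 on CD. The HFD+PP, HFD and HFD+Ex arrays lay far below CD for both genes. The Mup genes are close copies, and their probes were not checked for cross-hybridisation. Of 28 liver markers, 27 were detected on HFD+PP and all 28 on CD, and 21 were lower on HFD+PP than on CD. Their summed signal was 41.6 on HFD+PP, 44.7 on HFD, 46.7 on HFD+Ex and 126.1 on CD, in units of the 75th percentile. The median level of these markers was 9.34 on the CD liver array and 0.50 on the CD colon array. In the ileum the median was -3.28 on the HFD+PP array and -0.26 on the CD array. HFD and HFD+Ex, which share the CD array in their own comparisons, had 152 and 149 liver genes lower than CD. The part of this liver signal in the results below was not tested beyond leaving these genes apart and giving the other colon arrays.

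Among the 16594 other genes, 213 were higher on HFD+PP than on CD, which is 1.28%, and 146 were lower, which is 0.88%. Together they made 2.16% of the measured genes. Of the higher genes 160 were seen on both arrays and 53 are bounds, and of the lower genes 86 were seen on both and 60 are bounds. At least 3-fold, 48 genes were higher and 32 lower. The median difference of all measured genes was 0.00, and the 5th and 95th percentiles were -0.55 and 0.55. HFD had 74 genes higher and 139 lower than CD, 0.445% and 0.835% of those measured, and HFD+Ex had 182 higher and 108 lower, 1.1% and 0.652%, with the same CD array in each. Against HFD, HFD+PP had 272 genes higher and 163 lower, 1.64% and 0.983%, and against HFD+Ex it had 214 higher and 288 lower, 1.3% and 1.75%. With the processed values that the authors deposited, 166 genes were higher and 183 lower, and the share of changed genes that were higher was 47.6%, beside 59.3% here. Those values differ from the ones used here by a constant factor per array, which shifts every difference by the same amount. With a normexp background correction that share was 70.4%, with 69 genes higher and 29 lower. The genes nearest to the threshold lay at 1.0018 inside and 0.9995 outside for higher genes, and at -1.0023 inside and -0.9997 outside for lower genes.

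**Figure D1:**
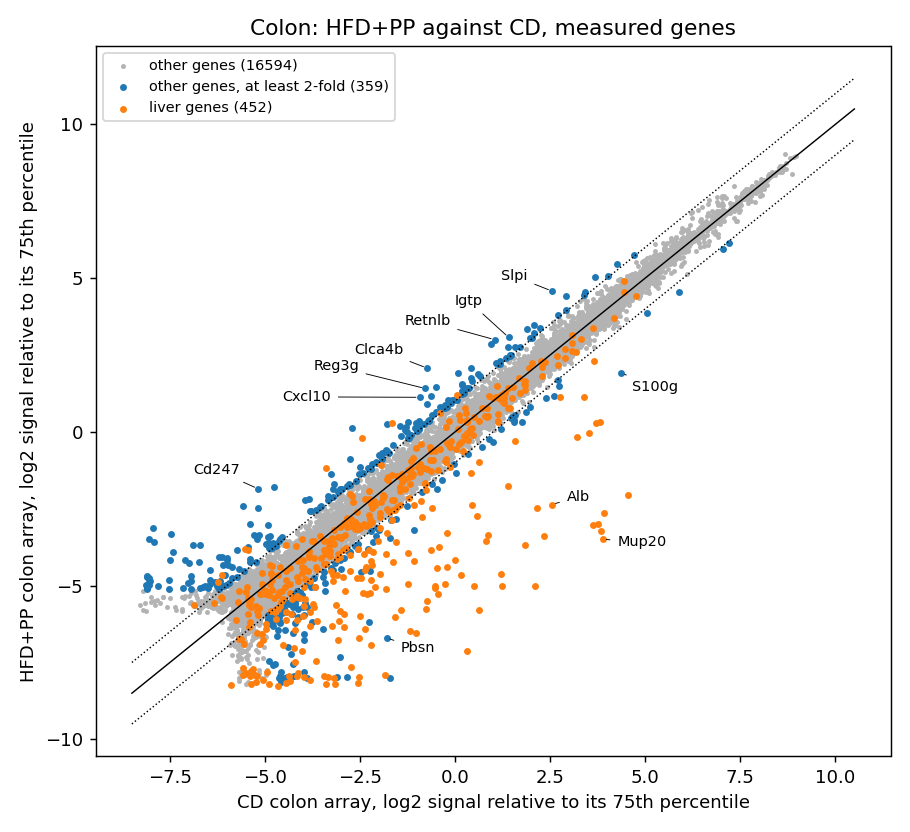
Level of each measured gene on the HFD+PP colon array (vertical axis) against the CD colon array (horizontal axis), both as log2 signal relative to the 75th percentile of the array. The solid line marks equal levels and the dotted lines 2-fold. Many liver genes (orange), such as Mup20 and Alb, lie far below the diagonal, and the other genes that differ at least 2-fold (blue) lie on both sides.

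Several interferon-response genes were higher on HFD+PP than on CD and none was lower. Interferons, made by immune and epithelial cells on contact with microbes or activated lymphocytes, switch on genes of pathogen restriction, antigen presentation and T cell recruitment. Of 40 measured members of the list, 7 were higher on HFD+PP and 0 lower, against 1.28% and 0.88% of all genes. The median difference of the list was 0.51, and 37 members had a positive difference. The same members had medians of -0.23 for HFD minus CD and -0.08 for HFD+Ex minus CD.

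Most of the changed members were chemokines and GTPases known as targets of interferon gamma. Cxcl10, a chemokine that attracts activated T cells, had a level of 1.12 on the HFD+PP array, -0.99 on HFD, -1.41 on HFD+Ex and -0.93 on CD. It was 4.16-fold higher on HFD+PP than on CD, and the CD and HFD arrays lay close together. Cxcl9, its neighbour in the same chemokine family, read -1.38 on the HFD+PP array, -3.11 on HFD, -4.12 on HFD+Ex and -3.25 on CD. It was 3.66-fold higher on HFD+PP than on CD, or 1.87 log2, and a further probe of it differed by 1.12 log2. HFD+PP was the highest of the colon arrays for both chemokines. Igtp, an immunity-related GTPase that acts on vacuoles of intracellular pathogens, read 3.07 on the HFD+PP array, 1.29 on HFD, 1.24 on HFD+Ex and 1.41 on CD. Gbp2, a guanylate-binding protein, read 3.33 on the HFD+PP array, 1.76 on HFD, 1.91 on HFD+Ex and 1.88 on CD. For Igtp and Gbp2 the other arrays lay close together and HFD+PP stood 3.17-fold and 2.73-fold above CD. Tgtp2, a T cell-specific GTPase outside the list, was 3.73-fold higher, with levels of 2.85, 0.57, 0.53 and 0.95 in the same order of arrays. Its difference was 1.90 log2, and a further probe of it differed by 1.04 log2. Oas2, an activator of antiviral RNA decay, Irgm2 and Gbp4 were higher by 1.17, 1.05 and 1.04 log2. Ifng, interferon gamma itself, was well above background on HFD+PP at -4.07 and not on CD, HFD or HFD+Ex, which makes it at least 4.15-fold higher than on CD.

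The other 33 measured members of the list did not reach 2-fold. Irgm1, Iigp1, Usp18 and Oas3 had differences of 0.86, 0.82, 0.82 and 0.79. Isg15, a ubiquitin-like modifier, and Ifit1, an antiviral RNA-binding protein, had 0.69 and 0.64. Irf7, Xaf1 and Ifih1 had -0.09, 0.00 and 0.00. MHC class II genes, which present antigen to helper T cells and are induced through Ciita, had 11 measured members with none changed and a median of 0.21. Ciita had a difference of 0.51, and the class II chains H2-Aa and H2-Ab1 had 0.14 and -0.06. With HFD in place of CD the interferon list had 16 members higher, against 1.64% of all genes, and a median of 0.74. With HFD+Ex it had 10 higher, against 1.3% of all genes, and a median of 0.55. These comparisons share the HFD+PP array.

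Promoters of the chemokine and GTPase genes are shown because most of the changed members with a window hold the same motif. The windows hold 250 bases before and 50 after the annotated start, from RefSeq annotation on GRCm38.p6, and were read in the direction of the gene. Capitals mark an interferon-stimulated response element, spelled GAAA, any 2 bases and GAAA again, searched on both strands, and in Igtp also TTCNNNGAA, a gamma-activated site to which STAT factors bind. The windows are chr5:92348840-92349139 (minus strand) for Cxcl10, chr3:142620413-142620712 (plus strand) for Gbp2 and chr11:58199306-58199605 (plus strand) for Igtp. 
Cxcl10: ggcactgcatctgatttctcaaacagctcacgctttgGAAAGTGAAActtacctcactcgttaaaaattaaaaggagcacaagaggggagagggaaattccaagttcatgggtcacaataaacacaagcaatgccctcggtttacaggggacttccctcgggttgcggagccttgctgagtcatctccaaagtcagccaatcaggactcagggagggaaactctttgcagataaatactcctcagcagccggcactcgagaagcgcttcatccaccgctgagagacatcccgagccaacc
Gbp2: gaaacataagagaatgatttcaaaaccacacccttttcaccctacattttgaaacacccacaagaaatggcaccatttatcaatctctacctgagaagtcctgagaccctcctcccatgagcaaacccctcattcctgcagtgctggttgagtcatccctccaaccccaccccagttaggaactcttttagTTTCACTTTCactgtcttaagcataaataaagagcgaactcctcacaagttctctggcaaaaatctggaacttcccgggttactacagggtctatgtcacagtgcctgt
Igtp: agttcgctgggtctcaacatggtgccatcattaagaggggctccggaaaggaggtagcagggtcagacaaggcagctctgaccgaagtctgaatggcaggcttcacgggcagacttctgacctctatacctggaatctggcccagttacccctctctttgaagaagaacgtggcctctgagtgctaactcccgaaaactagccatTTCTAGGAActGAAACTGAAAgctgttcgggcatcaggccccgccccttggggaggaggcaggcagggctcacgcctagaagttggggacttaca
The first motif starts 213 bases before the start of Cxcl10, 59 before that of Gbp2, on the opposite strand, and 34 before that of Igtp. It was found on either strand in 18 of the 29 measured list members with a window (62.1%) and in 3.489% of 27025 promoters. Among the 5 higher members with a window, Gbp2, Cxcl10, Irgm2 and Igtp held it. The second motif was found in 7 of the 29 windows (24.1%) and in 8.466% of all promoters, and in Igtp it does not overlap the first. A match says only that these letters stand in the window.

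Cell cycle genes were all on the positive side, by smaller amounts. They encode the replication helicase, nucleotide synthesis enzymes, cyclins and spindle regulators of dividing cells, which in the colon lie mostly in the lower crypt. Of 34 measured members, 10 were higher and 0 lower, against 1.28% and 0.88% of all genes, and all 34 had a positive difference, with a median of 0.91. Medians for the same members were 0.05 for HFD minus CD and 0.15 for HFD+Ex minus CD. With HFD in place of CD 9 members were higher, against 1.64% of all genes, and the median was 0.86. With HFD+Ex 3 were higher, against 1.3%, and it was 0.78.

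Rrm2, the regulatory subunit of ribonucleotide reductase, had a level of 1.88 on the HFD+PP array, 0.76 on HFD, 0.73 on HFD+Ex and 0.59 on CD. Ccna2, the cyclin of S phase and G2, read 2.77 on the HFD+PP array, 1.74 on HFD, 1.90 on HFD+Ex and 1.58 on CD. Plk1, a mitotic kinase, read 3.38 on the HFD+PP array, 2.37 on HFD, 2.53 on HFD+Ex and 2.24 on CD. In these genes the HFD, HFD+Ex and CD arrays lay close together and HFD+PP lay above them. The folds against CD were 2.44 for Rrm2, 2.28 for Ccna2 and 2.20 for Plk1. Bub1, of the spindle checkpoint, Aurkb, Birc5 and Aurka, Cdk1, the kinase of mitotic entry, and the S phase genes Mcm5 and Tk1 were the other higher members, with differences between 1.05 for Cdk1 and 1.17 for Bub1. Mki67, the proliferation antigen Ki-67, read 4.11, 3.32, 3.51 and 3.21 in the same order of arrays, a difference of 0.90 that stays under 2-fold. Pcna, Ccnd1 and Tyms had the smallest differences, of 0.33, 0.17 and 0.11.

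The crypt stem cell and Wnt target list had 20 measured members, none of them changed, with a median of 0.00. Lgr5, the receptor that marks crypt base stem cells, had a difference of -0.01, Axin2 0.13, Myc -0.38 and Ascl2 -0.68. Values of other cell types moved beside the cell cycle list, and their part in it was not tested. The 16 colon epithelium markers had a median of 0.21 and none changed. The 17 measured smooth muscle markers all had a negative difference, with a median of -0.45, and 35 matrix genes had a median of -0.24. In bulk RNA fewer cells of a type and less RNA per cell cannot be told apart. All 15 measured B cell and plasma cell markers had a positive difference, with a median of 0.54, and 0 reached 2-fold. Cd79a had a difference of 0.75, Jchain 0.83 and Ms4a1 0.56. T and NK cell markers had a median of -0.04 over 18, with 8 positive and 10 negative differences. Of these 0 were higher and 1 lower, Ccl5 at -1.04, against 1.28% and 0.88% of all genes.

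The promoter of Plk1 is shown as an example of a cell cycle promoter, at chr7:122159185-122159484 (plus strand). Capitals mark CCAAT, the box bound by NF-Y, 14 bases before the start, and TTTGAA, the cell cycle homology element, 30 bases after it. The motifs do not overlap there.
Plk1: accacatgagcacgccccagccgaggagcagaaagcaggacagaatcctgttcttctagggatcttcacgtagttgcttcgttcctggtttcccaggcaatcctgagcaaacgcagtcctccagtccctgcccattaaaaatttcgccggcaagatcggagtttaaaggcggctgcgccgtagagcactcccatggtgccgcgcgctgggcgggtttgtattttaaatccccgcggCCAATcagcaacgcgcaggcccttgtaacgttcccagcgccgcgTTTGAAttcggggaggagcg
On either strand CCAAT was found in 21 of the 28 measured cell cycle genes with a window (75%) and in 37.92% of all promoters. TTTGAA was found in 12 of the 28 (42.9%) and in 18.11% of all promoters.

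All measured cholesterol synthesis genes had a positive difference, and a few reached 2-fold. The enzymes turn acetyl-CoA into cholesterol through mevalonate, farnesyl diphosphate and squalene, and are induced by the sterol sensor SREBP2 when cellular cholesterol falls. Of 24 measured members, 4 were higher and 0 lower, against 1.28% and 0.88% of all genes. The median was 0.61, beside 0.16 for HFD minus CD and 0.04 for HFD+Ex minus CD. With HFD in place of CD 1 member was higher, against 1.64% of all genes, and the median was 0.51. With HFD+Ex 2 were higher, against 1.3% of all genes, and the median was 0.63.

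Fdps, farnesyl diphosphate synthase, read 5.07 on the HFD+PP array, 4.17 on HFD, 4.005 on HFD+Ex and 4.01 on CD. Hmgcs1, the cytosolic HMG-CoA synthase, read 5.74 on the HFD+PP array, 5.03 on HFD, 4.98 on HFD+Ex and 4.70 on CD. Lss, lanosterol synthase, read 0.80 on the HFD+PP array, 0.04 on HFD, -0.10 on HFD+Ex and -0.20 on CD. Fdps, Hmgcs1 and Lss stood 2.08-fold, 2.06-fold and 2-fold above CD, and each of them lay just below 2-fold with the values the authors deposited and with quantile normalisation. Along the pathway, Idi1 had a difference of 0.91, Mvd 0.90, Fdft1 0.83 and Sqle 0.79. The late enzymes Dhcr7 and Ebp had 0.28 and 0.19.

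The promoter of Hmgcs1, at chr13:119690101-119690400 (plus strand), is shown with TCACNCCAC, a sterol regulatory element, in capitals at 137 bases before the start.
Hmgcs1: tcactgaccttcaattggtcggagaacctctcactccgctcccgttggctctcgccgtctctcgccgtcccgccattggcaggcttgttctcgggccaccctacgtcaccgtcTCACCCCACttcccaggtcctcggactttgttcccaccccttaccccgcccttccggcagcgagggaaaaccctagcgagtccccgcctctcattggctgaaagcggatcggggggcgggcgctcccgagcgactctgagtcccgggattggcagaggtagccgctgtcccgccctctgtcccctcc
On either strand this motif was found in 1 of the 16 measured list members with a window (6.25%) and in 1.221% of all promoters.

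Among genes of sterol export 1 was lower. Their list, which holds targets of the oxysterol receptors LXR, had 12 measured members and a median of -0.30. Of these members 0 were higher and 1 lower, against 1.28% and 0.88% of all genes. Abcg5, an exporter of sterols into the lumen, read 1.49 on the HFD+PP array, 2.33 on HFD, 2.15 on HFD+Ex and 2.73 on CD and was 2.37-fold lower on HFD+PP than on CD. Abcg1, Abca1 and Mylip had differences of -0.74, -0.60 and -0.57. Abcg5 had a mean level of 5.53 on the liver arrays, and the part of the liver signal on CD in its difference was not tested. Among 19 genes of fatty acid synthesis only Me1, malic enzyme, changed, with levels of 0.82, 1.33, 1.31 and 1.97 in the order HFD+PP, HFD, HFD+Ex and CD. Fasn, fatty acid synthase, had -0.25 and Srebf1 -0.20. Me1 also had a liver mean of 5.45 and is among the genes typical of the fat arrays, whose markers were highest on CD as given below. Scd1, which is in the liver class, was lower by 4.85-fold.

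**Figure D2:**
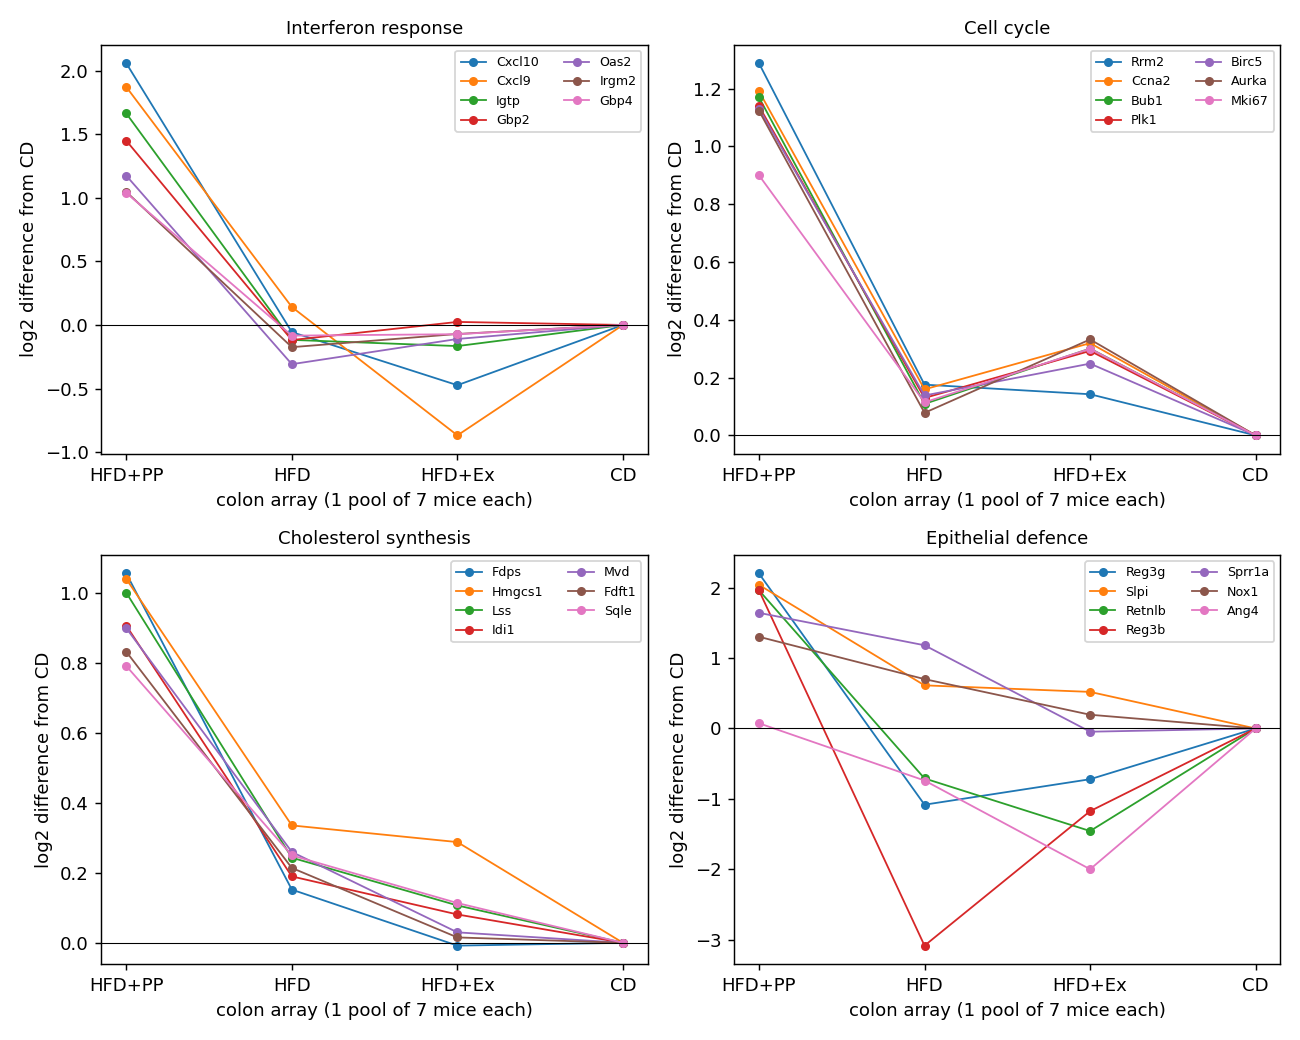
Level of 7 genes each of the interferon, cell cycle, cholesterol and epithelial defence lists on the 4 colon arrays, as log2 difference from the CD array (vertical axis), with CD at 0. Each line is 1 gene and each point 1 array of 7 pooled mice. In the first 3 panels HFD+PP lies above HFD and HFD+Ex for every gene drawn, and in the defence panel Reg3g, Reg3b and Retnlb lie below CD on HFD and HFD+Ex.

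Defence genes of the epithelium held some of the highest differences. Of 33 measured members, 6 were higher and 0 lower on HFD+PP, against 1.28% and 0.88% of all genes, with a median of 0.10, so the list as a whole stayed near 0. Reg3g, a lectin that kills Gram-positive bacteria, read 1.41 on the HFD+PP array, -1.87 on HFD, -1.51 on HFD+Ex and -0.79 on CD. Reg3b, its relative, read 1.46 on the HFD+PP array, -3.58 on HFD, -1.67 on HFD+Ex and -0.50 on CD. Retnlb, the goblet cell product RELM-beta that is induced by bacteria and worms, read 2.999 on the HFD+PP array, 0.33 on HFD, -0.42 on HFD+Ex and 1.04 on CD. In all of these HFD+PP was the highest array, CD the next, and HFD and HFD+Ex the lowest, so HFD and HFD+Ex lay on the other side of CD. The folds of HFD+PP against CD were 4.59, 3.89 and 3.89.

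Slpi, a protease inhibitor of mucosal secretions, read 4.58 on the HFD+PP array, 3.15 on HFD, 3.06 on HFD+Ex and 2.54 on CD, a 4.11-fold difference. Sprr1a, a cornified envelope protein induced by stress, read 0.19 on the HFD+PP array, -0.27 on HFD, -1.49 on HFD+Ex and -1.45 on CD, and Nox1, the superoxide-making oxidase of the colon epithelium, read 0.27 on the HFD+PP array, -0.33 on HFD, -0.83 on HFD+Ex and -1.03 on CD. HFD+PP was the highest array for all of these, and HFD lay between HFD+PP and CD. The remaining defence genes differed by less than 2-fold. Ang4, an antimicrobial ribonuclease, had 0.07, Zg16, a lectin of the mucus, 0.36, Reg4 0.40, Lcn2 0.09, and the acute-phase genes Saa1 and Saa3 -0.15 and 0.48.

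Goblet cell products had 24 measured members, of which 1 was higher, Retnlb, and 0 lower, against 1.28% and 0.88% of all genes. The list median was 0.25. Muc2, the mucin of the mucus gel, had a difference of 0.68, Spink4 0.91, Agr2 0.64, Clca1 0.09 and Tff3 0.12. Of 26 measured mucin glycosylation genes 1 was higher, B3gnt6, the synthase of core 3 mucin glycans, at 1.02. Among 24 tight junction genes Cldn1 was lower by at least 2.05-fold, and Cldn4, Cldn15, Ocln and Tjp1 had -0.51, 0.44, -0.16 and 0.01. Cldn1 was not well above background on HFD+PP, and 0 members were lower with normexp or quantile normalisation. Cldn22, a claudin outside the list, was 2.88-fold lower and read -3.81 on the HFD+PP array, -2.75 on HFD, -2.82 on HFD+Ex and -2.29 on CD.

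Of 36 measured cytokines, chemokines and mediators, 2 were higher and 1 lower, against 1.28% and 0.88% of all genes, with a median of 0.05. Cxcl5, a neutrophil attractant, was 2.56-fold higher, with -1.86, -2.14, -2.65 and -3.22 in the usual order of arrays, Ifng was higher as given above, and Ccl5 was lower. Tnf, Il1b and Il18 had -0.11, -0.10 and 0.01, and Il6 was not well above background on either array. The 17 measured macrophage markers had a median of 0.00 and none of the 7 neutrophil markers changed.

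Transporters of the colonocyte had 42 measured members with 4 higher, 1 lower and a median of -0.04, against 1.28% and 0.88% of all genes. Clca4b, a chloride channel accessory protein, read 2.08 on the HFD+PP array, 0.09 on HFD, -1.05 on HFD+Ex and -0.74 on CD and was 7.05-fold higher on HFD+PP than on CD. Its neighbour Clca4a read 3.49 on the HFD+PP array, 1.59 on HFD, 1.86 on HFD+Ex and 2.08 on CD. HFD+PP was the highest array for both. The genes are close copies, and cross-hybridisation of their probes was not checked. Aqp4, a water channel, read 3.79 on the HFD+PP array, 1.67 on HFD, 1.88 on HFD+Ex and 2.71 on CD. Slc9a3, the sodium-proton exchanger NHE3, read 4.44 on the HFD+PP array, -1.08 on HFD, 1.38 on HFD+Ex and 3.38 on CD. Aqp4 and Slc9a3 shared an order in which HFD+PP was highest, CD second, and HFD lowest, and for Slc9a3 the difference HFD minus CD was -4.46. Scnn1g, a subunit of the epithelial sodium channel, read -3.65 on the HFD+PP array, -1.13 on HFD, -1.82 on HFD+Ex and -2.55 on CD and was 2.13-fold lower on HFD+PP than on CD. Its order was the reverse, and Scnn1b and Sgk1, an aldosterone-induced kinase, had differences of -0.49 and -0.47. The broadly used transporters Slc26a3, Aqp8, Car4 and Slc5a8 had -0.32, 0.07, 0.04 and -0.30.

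Hox genes, which keep the position of a cell along the body axis, had 1 lower member, in the HoxD cluster. The list of 21 measured position genes had 0 higher and 1 lower, against 1.28% and 0.88% of all genes, and a median of -0.11. Hoxd12 read -1.87 on the HFD+PP array, 0.41 on HFD, 0.42 on HFD+Ex and -0.47 on CD and was 2.63-fold lower on HFD+PP than on CD. Hoxd8, Hoxd10, Hoxd11 and Hoxd13 had differences of -0.90, -0.82, -0.76 and -0.66. The corresponding differences of HFD from CD were 0.05, 1.47, 1.502 and 0.97, so for Hoxd10, Hoxd11 and Hoxd13 CD lay between HFD+PP and HFD. Hoxb13 and Hoxa13, other genes of the distal colon, had -0.01 and 0.00. Cdx2, the intestinal homeobox factor, read 3.45 on the HFD+PP array, 1.25 on HFD, 1.70 on HFD+Ex and 2.71 on CD. It had a difference of 0.74, the opposite order to that of the HoxD genes.

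Some genes better known from the small intestine were higher and others lower, and the list of small intestine markers leaned to the negative side. Its 9 measured members had 2 higher and 3 lower, against 1.28% and 0.88% of all genes. The list median was -0.27, with 7 negative differences. The same members had medians of -0.46 for HFD minus CD and -0.41 for HFD+Ex minus CD. Tmigd1, an adhesion protein of mature enterocytes, read 0.27 on the HFD+PP array, -3.53 on HFD, -2.55 on HFD+Ex and -1.79 on CD, a 4.16-fold difference. Isx, a homeobox repressor of vitamin A uptake, read 0.36 on the HFD+PP array, -4.16 on HFD, -3.72 on HFD+Ex and -0.96 on CD, and Fabp2, the intestinal fatty acid-binding protein, read 5.02 on the HFD+PP array, 2.66 on HFD, 3.24 on HFD+Ex and 3.67 on CD. HFD+PP was the highest and CD the second of the colon arrays for these, and Isx and Fabp2 were 2.49-fold and 2.56-fold above CD. Alpi, intestinal alkaline phosphatase, was 3.72-fold higher and read -3.03 on the HFD+PP array, -5.38 on HFD, -5.34 on HFD+Ex and -4.93 on CD, with HFD+PP alone high. Treh, trehalase, was 2.12-fold higher and read -3.76 on the HFD+PP array, -3.47 on HFD, -3.61 on HFD+Ex and -4.84 on CD, with CD alone low. Lower genes of this kind were Lct, lactase, by 2.15-fold, Slc10a2, an ileal bile acid transporter, by 2.32-fold, and Mmp7, a Paneth cell protease, by 2.47-fold. Slc10a2 read -1.57 on the HFD+PP array, -1.73 on HFD, -1.74 on HFD+Ex and -0.35 on CD, and Mmp7 read -4.50 on the HFD+PP array, -5.30 on HFD, -4.78 on HFD+Ex and -3.20 on CD. For both of these CD alone was high. Lct read -5.76 on the HFD+PP array, -4.88 on HFD, -4.18 on HFD+Ex and -4.65 on CD, so for it HFD+PP was the lowest array. Across the 213 higher genes, 31 (14.6%) had a mean level on the ileum arrays at least 4-fold above their mean on the HFD and HFD+Ex colon arrays. The share was 7.53% of the 146 lower genes and 2.25% of all measured genes. For the liver arrays in place of the ileum arrays it was 10.8% of the higher genes, 10.96% of the lower genes and 7.71% of all. These shares were chosen after values were seen and are a description with no test.

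**Figure D3:**
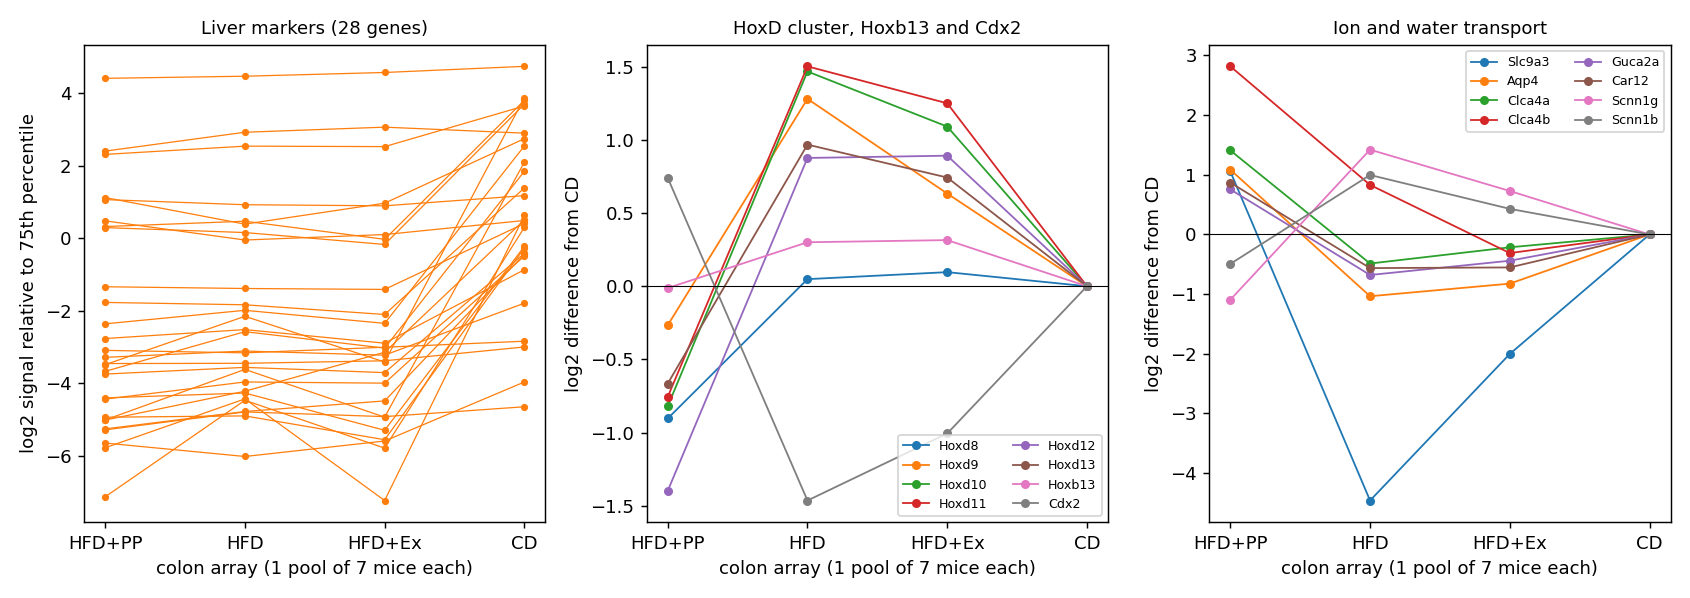
Liver markers (left, log2 signal relative to the 75th percentile), HoxD genes with Hoxb13 and Cdx2 (middle) and ion and water transport genes (right, both as log2 difference from CD) on the 4 colon arrays. Most liver markers stand highest on CD. The HoxD genes lie lowest on HFD+PP, and Slc9a3, Aqp4 and Cdx2 highest there.

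Genes of ceramide and sphingomyelin metabolism, lipids of membranes and signalling, had 32 measured members with a median of 0.02. Of these 2 were higher and 0 lower, against 1.28% and 0.88% of all genes. Sptssb, a small subunit of serine palmitoyltransferase, was well above background on HFD+PP at -4.09 and not on CD, at least 3.72-fold higher. Smpdl3b, a sphingomyelinase-like membrane protein, was 2.06-fold higher. Sptlc2, Cers6, Smpd3 and Asah2 had -0.06, 0.18, -0.12 and -0.11. Of 14 measured bile acid genes only Slc10a2 changed, with CD alone high as given above, and Fabp6, Slc51a, Slc51b, Nr1h4 and Gpbar1, which bind, export or sense bile acids, had -0.27, 0.81, 0.48, -0.12 and -0.15. Fgf15, the hormone that signals bile acid uptake to the liver, was not well above background on either array.

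Fatty acid oxidation genes, which a high fat diet can raise through PPAR-alpha, had 29 measured members and a median of 0.04. Of these members 1 was higher, Fabp2, and 0 lower, against 1.28% and 0.88% of all genes. Cpt1a, which lets fatty acids into mitochondria, had 0.05, Pdk4 -0.70 and Angptl4 0.07. Of 19 fat absorption genes only Fabp2 changed, and of 21 brush border genes 2 were higher and 1 lower, as given above. The 42 respiratory chain subunits had none changed and a median of 0.16, and the 20 unfolded protein response genes none and 0.29. The 53 measured xenobiotic genes had none changed either, a median of 0.08, and 0.90 for Cyp1a1 and -0.54 for Cyp2c55. Among 24 hormone cell genes 1 was higher. This was Neurog3, the factor that starts endocrine differentiation, with 1.15, -0.35, -0.36 and -0.64 in the order HFD+PP, HFD, HFD+Ex and CD, while Insl5, Pyy and Gcg had 0.27, 0.36 and 0.37. Of 21 retinoid genes Isx and Dhrs9, a retinol dehydrogenase, were higher, Dhrs9 by 2.33-fold.

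Immediate early genes, which respond within minutes to a stimulus or to handling of tissue, had 21 measured members. Of these 2 were lower, against 0.88% of all genes, and the list median was -0.32. Egr1, a zinc-finger transcription factor, read 0.33 on the HFD+PP array, 1.01 on HFD, 0.30 on HFD+Ex and 1.75 on CD, and Nr4a1, an orphan nuclear receptor, read 1.11 on the HFD+PP array, 1.88 on HFD, 2.04 on HFD+Ex and 2.39 on CD. CD was the highest of the colon arrays for both. Dusp1 had -0.96 and Fos -0.32. Clock genes had 20 measured members with none changed and a median of -0.27, with -0.63 for Dbp, -0.49 for Nr1d1 and 0.04 for Arntl.

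Of 13 fat cell markers 2 were lower, Retn and Cfd, against 0.88% of all genes. A negative difference was found in 11 of them, and the median was -0.44. The same markers had medians of -0.43 for HFD minus CD and -0.44 for HFD+Ex minus CD. Their summed signal was 63.4 on HFD+PP, 58.0 on HFD, 63.7 on HFD+Ex and 99.6 on CD, in units of the 75th percentile. Retn had differences from CD of -1.43 on HFD+PP, -1.86 on HFD and -1.39 on HFD+Ex, and Cfd had -1.17, -2.59 and -1.27 in that order. CD was thus the highest array for the sum and for both genes, Adipoq had -0.35, and the part of fat RNA in other differences was not tested. Exocrine pancreas markers had 3 of 17 higher, against 1.28% of all genes, with 12 positive and 5 negative differences. With normexp 0 were higher, and 1 was when both arrays had to be well above background. Their summed signal was 367.4 on HFD+PP, 558.6 on HFD, 542.6 on HFD+Ex and 503.4 on CD, so HFD+PP was the lowest array for the sum. Amy2a5, pancreatic amylase, read -0.77, -4.07, -0.54 and -1.99 in the order HFD+PP, HFD, HFD+Ex and CD, but a further probe of it differed by -0.19. Pnlip and Cela2a were at least 2.25-fold and at least 2.01-fold higher, and neither was well above background on CD. Of 10 mast cell markers Mcpt2 was 2.14-fold higher and read -3.76 on the HFD+PP array, -3.80 on HFD, -3.83 on HFD+Ex and -4.86 on CD, with CD the lowest array. Fcer1a was lower by at least 2.22-fold. It was not well above background on HFD+PP or HFD+Ex, and read -5.75 on HFD and -4.79 on CD. Enteric neuron and glia markers had a median of -0.34 over 19 and none changed, and the 12 fibroblast and endothelium markers had a median of -0.25. The 10 skeletal muscle, 6 mesothelium and 4 red blood cell markers measured had none changed, and the colon epithelium markers, Epcam among them with 0.04, were detected on both arrays.

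**Figure D4:**
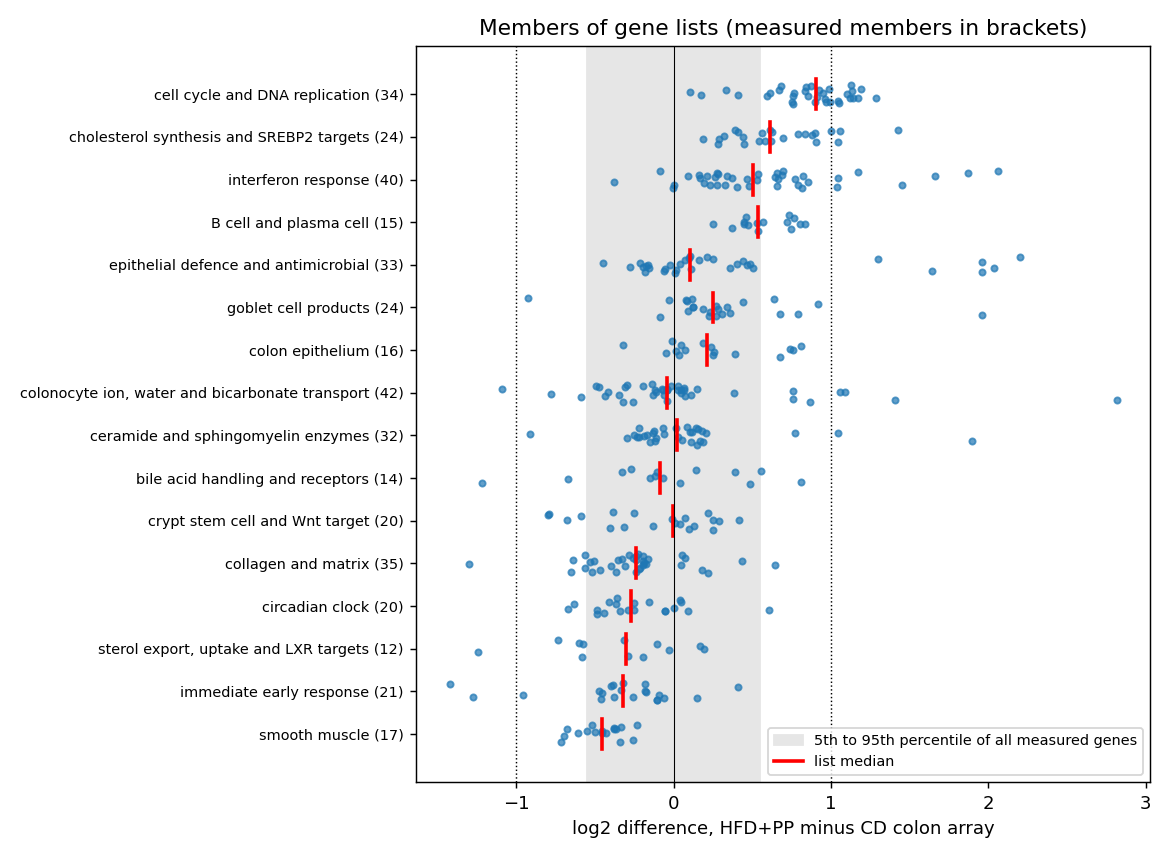
Log2 difference HFD+PP minus CD (horizontal axis) of each measured member of 16 gene lists, 1 point per gene, with a bound drawn at its bound, and the list median as a red bar. The grey band spans the 5th to 95th percentile of all measured genes outside the liver class, from -0.55 to 0.55, and the dotted lines mark 2-fold. All cell cycle, cholesterol and B cell members lie right of 0, and all smooth muscle members lie left of 0.

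Beyond the lists, several of the highest differences measured on both arrays were in genes that lay near the detection floor on CD. Cd247, the zeta chain of the T cell receptor, read -1.85 on the HFD+PP array, -5.78 on HFD, -6.03 on HFD+Ex and -5.19 on CD, and a further probe of it differed by only 0.33. Lrfn2, a synaptic adhesion protein, was 8.97-fold higher, Fer1l4, a dysferlin relative, 7.14-fold, Rab26, a GTPase of secretory granules, 6.59-fold and Kctd7 5.20-fold. Cabyr, a calcium-binding protein of the sperm tail, was 3.85-fold higher, but a further probe of it differed by -0.24. For Lrfn2 and Rab26 HFD+PP read -2.42 and -2.46, and the other colon arrays lay far lower, near their floors.

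The largest decrease on both arrays was that of S100g, the vitamin D-induced calcium carrier calbindin-D9k, with 1.91 on the HFD+PP array, 4.11 on HFD, 2.93 on HFD+Ex and 4.37 on CD. HFD+PP was 5.49-fold lower than CD, and HFD lay close to CD. Chit1, a chitinase of macrophages, read -3.20 on the HFD+PP array, -1.58 on HFD, -2.52 on HFD+Ex and -1.09 on CD, and Sult1e1, an oestrogen sulfotransferase, -3.59 on the HFD+PP array, -1.09 on HFD, -1.65 on HFD+Ex and -2.17 on CD. HFD+PP was the lowest array for these genes. Cldnd2, Npffr1 and Clasp2 were highest on CD, with -2.25, -1.71 and -3.94 there. Genes of male accessory glands also differed between colon arrays, and Svs5 is named after its values were seen. Tgm4, a prostate transglutaminase, read -4.57 on the HFD+PP array, -4.997 on HFD, -4.88 on HFD+Ex and -2.46 on CD, and Pbsn, probasin of the prostate, was at least 17.6-fold lower on HFD+PP than its level of -1.80 on CD, and read -5.31 on HFD+Ex. Svs5, a seminal vesicle protein, read -5.12 on HFD+PP, -6.16 on HFD, -1.21 on HFD+Ex and -6.94 on CD, and was not well above background on HFD or CD. The part of such RNA in other differences was not tested.

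Liver class genes that went against the rest were few. Mfsd2a, a transporter of lysophosphatidylcholine, read -0.20 on the HFD+PP array, -2.74 on HFD, -3.16 on HFD+Ex and -2.45 on CD, and Slc3a1, a subunit of the cystine transporter, read -1.19 on the HFD+PP array, -3.26 on HFD, -3.73 on HFD+Ex and -3.39 on CD. HFD+PP was the highest colon array for both, by 4.76-fold and 4.59-fold over CD. Fabp1, the liver and intestinal fatty acid-binding protein, read -3.37 on the HFD+PP array, -2.46 on HFD, -2.89 on HFD+Ex and 2.33 on CD.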

How the data were processed

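RNA pooled from 7 mice per tissue and diet was hybridised to one-colour arrays, per the labels. Spots were quantified by Agilent Feature Extraction 11.5.1.1, per the file headers. Each spot has an intensity in the deposited scanner files, background-subtracted within the array by that software, and no scaling between arrays is stated. The authors' deposited series matrix also holds an intensity per spot and served as an alternative. Each of its colon columns equals the scanner signal times 1 factor, so it is linear and not centred, and what set the factor is not given in the sources used here. Its medians were 86.4 for HFD+PP, 84.6 for HFD, 86.7 for HFD+Ex and 92.6 for CD.

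From these, log2 of the processed signal minus the 75th percentile of each array over non-control spots was taken, after control spots (3671 per array) and outlier flags were left out. On the HFD+PP and CD colon arrays 66.8% and 67.9% of spots were well above background, with 0 saturated. Floors were -5.94 and -6.13 log2. Of 55681 probes, 28026 were named through a RefSeq gene table of GRCm38.p6 and gave 21154 genes. The probe brightest over the 20 arrays stood for a gene. Of 39 changed genes with several probes on both arrays, a probe went the other way in 3. No test was run, as each group was 1 array. Replicate spots within an array, of probes brighter than its 75th percentile, give a technical SD of 0.071 log2 for a difference. This leaves out dimmer probes, mice and pools. All 4 colon arrays were on 1 slide.

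The comparison and the 43 gene lists (1053 entries, 26 unmatched) were chosen with earlier results of these data known. The text names the 15 highest and 15 lowest genes on both arrays, up to 6 bounds per direction, up to 6 changed members per list and direction, a fixed set of genes and 5 liver genes per direction, and list members beside these by their place in the pathway. Predicted genes are counted and not named. Some genes that the rule names are counted but not reported here. Alternatives were normexp background correction (limma 3.58.1, R 4.3.3, offset 50, on median signals, since the files used here hold no mean signal), quantile normalisation, scaling to bright probes, the authors' values, other filters, probe rules and thresholds, and, added after the data were seen, the HFD or HFD+Ex array in place of CD. The difference step was tested on simulated data.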

Additional observations from a re-analysis of the deposited data

How the results depend on the processing

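No paired analysis was possible because each group is 1 array, and no replicate could be left out for the same reason. Counts outside the liver class, 213 higher and 146 lower, moved to 69 and 29 with normexp, 546 and 621 with no filter on dim probes, 750 and 705 at 1.5-fold, and 48 and 32 at 3-fold. Lower genes numbered 86 when both arrays had to be well above background, 297 with liver genes included, and 288 with HFD+Ex in place of CD. Under quantile normalisation, bright-probe scaling, the authors' values, mean over probes, a liver rule of 3 log2, no fat genes, and HFD in place of CD, counts stayed within 1.5 times, from 166 to 272 higher and 136 to 183 lower. The share of higher genes was 46.8% with no filter. The interferon median of 0.51 moved to 0.40 with normexp and 0.74 against HFD, the cell cycle median of 0.91 to 0.81 with normexp and 0.78 against HFD+Ex, and the cholesterol median of 0.61 to 0.51 against HFD. None reversed. Of 144 named genes with a difference, 101 changed, and the alternatives that kept a direction but dropped under 2-fold were normexp for 44, the authors' values for 8, quantile normalisation for 5 and the mean over probes for 4. With normexp 7 cell cycle, 3 cholesterol and 4 interferon genes were higher. The authors' values differ from the main ones by a constant factor per array, so they shift every difference by the same amount. The median over genes seen on both arrays was -0.059 with them, beside 0.002 here. Causes of the other moves were not tested. Probes near the floor and single arrays limit the precision.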
